A study of Mus musculus with 6 samples.

Results

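The 50 genes described here encode proteins that make ribosomes in the nucleolus, among them subunits of RNA polymerase I, the enzyme that transcribes ribosomal DNA. They were chosen by name, and all 50 were found among the 17691 genes measured. By role they comprise 7 genes of rDNA transcription, 3 of the box C/D particle, 4 of the box H/ACA particle, 17 of small subunit processing, 14 of large subunit processing and 5 other nucleolar proteins.

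RNA polymerase I makes one long precursor that holds ribosomal RNAs of both subunits, though not all of them. Box C/D and box H/ACA particles, each built on a small nucleolar RNA (snoRNA), methylate the precursor and turn selected uridines into pseudouridine, while processing factors fold it, cut it and join it to ribosomal proteins. Early erythroid precursors grow and divide fast and make many ribosomes, and this activity declines as they mature into red cells. Inherited defects of ribosome production are known to cause anaemia.

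The RNA came from erythroblasts, the nucleated precursors of red cells, purified from fetal livers of C57BL/6J mice as cells without the late erythroid antigen TER119. All cells were kept in medium with erythropoietin (Epo) for 30 h. In 3 libraries the cells were untreated, and in 3 libraries the medium also held carbon dots (CDs), carbon nanoparticles derived from the plant Codonopsis pilosula, at 1 ug/ml. The comparison asks which transcripts differ between cells with and without CDs. The age of the fetuses, the number of animals and whether replicates were separate cultures are not given in the sources used here, so each p-value reflects just the variation among these libraries, and that variation may be technical.

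Libraries held 17695997 to 20066581 expected counts. Of the erythroid markers, Gata1, Klf1, Tal1, Epor, Tfrc, Alas2, Hbb-bt and Slc4a1 together took 2.5% to 3.06% of the counts in each library. The 12 macrophage markers summed to 0.0145%, 0.0427% and 0.351% of the counts in untreated 1, 2 and 3 and to 0.0334%, 0.137% and 0.442% in CDs 1, 2 and 3. Of these 12, 10 were higher in the CDs library of every replicate number, while Lyz2 and Timd4 were not, and Timd4 had 0 to 6 counts per library. Cd163, among the 10, had 2 to 6 counts per library, with 6 in both libraries numbered 1. The 6 granulocyte markers ran from 0.0208% in untreated 1 to 0.144% in CDs 3. Between libraries of the same number, deviations from the group means correlated across all genes at 0.91, 0.34 and 0.94 (numbers 1, 2 and 3). Results are therefore also given by number. The pairing is weak for number 2, as untreated 2 correlated more with CDs 1 (0.68) than with CDs 2.

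Every member held at least 100 counts in each library, the lowest being 124. On the FPKM scale, which divides by transcript length, Npm1 had the highest level of the 50, at 451 ± 181 FPKM (SD over 6 libraries). Npm1 encodes nucleophosmin, an abundant nucleolar chaperone. Ncl, the gene of nucleolin, a nucleolar RNA-binding protein, had 138 ± 51.4 FPKM, and Nop56, a core protein of the box C/D particle, 119 ± 46.0 FPKM. In all 3 genes both libraries numbered 3 were the lowest. At the other end stood Utp20, a scaffold of the small subunit precursor, at 3.28 ± 0.992 FPKM, and Polr1e, an RNA polymerase I subunit, at 3.91 ± 1.37 FPKM.

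Below, 3 values per group are listed for replicate numbers 1, 2 and 3 of that group, as CPM, counts scaled to a common library total, unless another unit is named. With CDs, 48 of the 50 genes had lower fitted levels than untreated cells, with a median log2 fold change of -0.17 and a range of -0.43 (Nop56) to 0.18 (Heatr1). Over all 12283 genes tested the median was 0.01 and 48.1% lay below 0. None of these differences passed the test across libraries. In edgeR's quasi-likelihood test 0 members passed an adjusted p of 0.05 and 0 had an unadjusted p under 0.05, against 0% and 1.03% of all genes. DESeq2 and limma-voom without pairing by number also called 0 members, beside 14 (0.114%) and 0 of all 12283 genes. In all 50 genes the levels of both groups overlapped, while 2.33% of all genes were lower with CDs without overlap and 2.37% higher. The median depended on single libraries. It was 0.09 without CDs 3, with 7 of 50 genes below 0, and 0.02 without untreated 1, with 20 below 0. Leaving out untreated 2 gave -0.10, untreated 3 -0.39, CDs 1 -0.45 and CDs 2 -0.22. With both libraries numbered 3 left out it was -0.16, with 47 below 0.

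Compared within replicate numbers, the lower levels with CDs were smaller in number 1 than in the others. The median log2 difference of the 50 genes was -0.07 in number 1, -0.19 in number 2 and -0.30 in number 3, with 32, 48 and 48 genes below 0. The medians of all genes were 0.04, -0.003 and -0.004. CDs libraries were lower in all 3 numbers for 31 members (26.2% of all genes) and higher in all 3 for 1 member, Heatr1 (30.2% of all genes). With the number as a block in edgeR, 24 members had an unadjusted p under 0.05 on the lower side (11.9% of all genes) and 1, Heatr1, on the higher side (18% of all genes). After adjustment this fit called 0 members and 0.0407% of all genes, with a smallest member adjusted p of 0.0916, and limma-voom with the block called 0 members and 0.0488% of all genes. DESeq2 with the block called 5 members lower, against 2.09% of all genes, and 0 higher, against 7.76%. These were Nop56, Nop58, Nhp2, Mrto4 and Npm1, and over all settings their edgeR, limma or DESeq2 adjusted p ran from 4.20e-04 to 1. In settings added after the data were seen, edgeR with the block was fitted on 2 libraries per group. Without both libraries numbered 3 it called 7 members, all lower (Mrto4, Nhp2, Nop10, Nop56, Nop58, Npm1 and Polr1c). Of all 12089 genes, 359 (2.97%) were called lower and 1476 higher. Without both numbered 2 it called 7 members, all lower (Emg1, Mrto4, Nhp2, Nop16, Nop56, Nop58 and Polr1c). Of all 12559 genes, 291 (2.32%) were called lower and 608 higher. Without both numbered 1 the same fit called 0 members and 0% of all genes. At an unadjusted p under 0.05 in either direction there were 26 members, beside 2356 of 12542 genes.

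**Figure D1:**
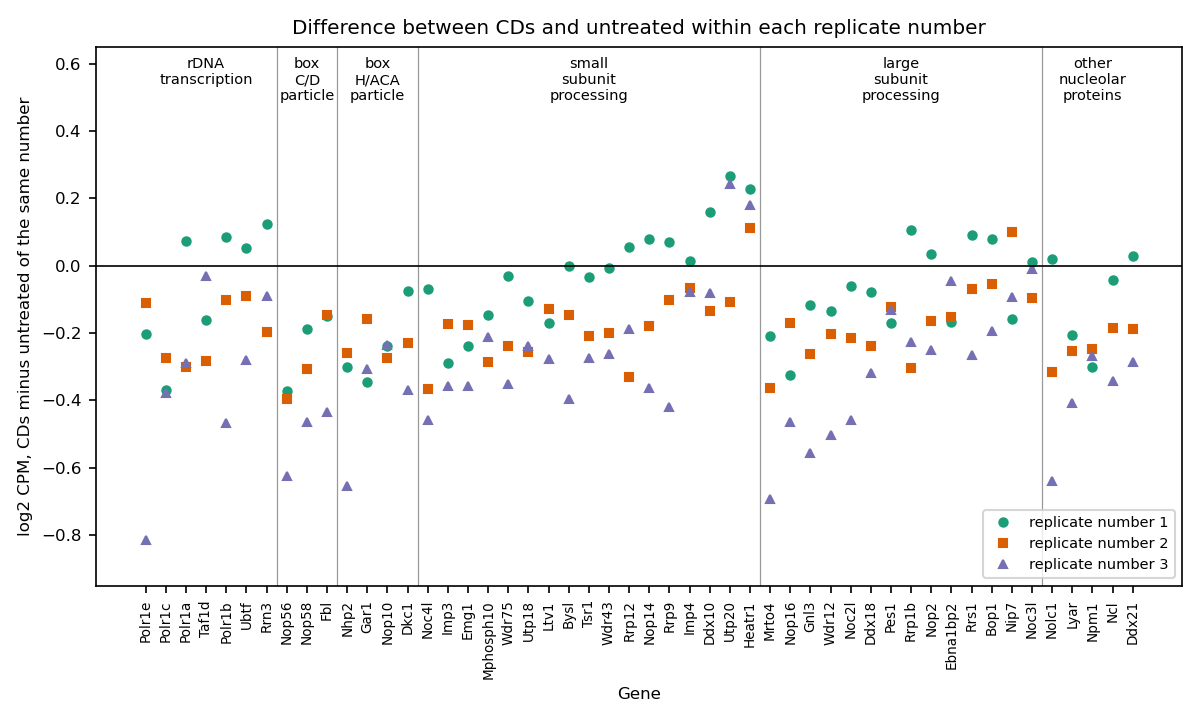
Difference in log2 CPM between the CDs and the untreated library of the same replicate number (y axis) for each of the 50 genes (x axis, grouped by step), with 1 symbol per number. Most points lie below 0, 31 genes have all 3 points below 0, and Heatr1 has all 3 above it.

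Among the genes of rDNA transcription, Polr1c, a subunit that RNA polymerases I and III share, had the lowest fitted value without the block, and Polr1e the lowest with it (-0.36 ± 0.16). Polr1c measured 36.2, 33.8 and 24.7 CPM untreated and 28.0, 28.0 and 19.0 CPM with CDs. Each CDs library was below its numbered partner, and the groups overlapped because untreated 3 was below CDs 1 and CDs 2. The log2 fold change was -0.34 ± 0.23 (SE, edgeR), and -0.34 ± 0.08 with the block. Rrn3 encodes TIF-IA, the factor that makes RNA polymerase I ready to start, and measured 105, 95.8 and 57.9 CPM untreated and 114, 83.6 and 54.4 CPM with CDs. CDs 1 was the highest of all 6 libraries for this gene, and the fold change of -0.04 ± 0.35 was within the spread. Ubtf, which encodes the rDNA-binding factor UBF, ran from 202 to 252 CPM untreated and from 167 to 261 CPM with CDs (-0.09 ± 0.20). Taf1d, a subunit of the selectivity factor SL1, had -0.17 ± 0.28, and the large catalytic subunit gene Polr1a -0.14 ± 0.37. All 7 genes of this step had fitted values below 0, with a median of -0.14, yet in number 1 the median was 0.05 and 3 of 7 were below 0.

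The 3 members that encode core proteins of the box C/D particle are Nop56, Nop58 and fibrillarin (Fbl), the methyltransferase. Nop56 measured 356, 314 and 152 CPM untreated and 275, 238 and 98.8 CPM with CDs. It was lower with CDs in each number, with log2 differences of -0.37, -0.40 and -0.62 and overlapping groups since untreated 3 was low as well. The log2 fold change was -0.43 ± 0.49 without the block and -0.46 ± 0.07 with it, and DESeq2 with the block gave -0.48 ± 0.11 (adjusted p = 4.20e-04). Nop58 measured 154, 140 and 76.5 CPM untreated and 135, 113 and 55.4 CPM with CDs, and again each CDs library was below its partner. Its log2 fold change was -0.29 ± 0.42, and -0.34 ± 0.12 in DESeq2 with the block (adjusted p = 0.0361). Fbl measured 150, 127 and 80.7 CPM untreated and 135, 115 and 59.7 CPM with CDs (-0.21 ± 0.38), and did not pass with the block (DESeq2 adjusted p = 0.154). The FPKM ratio of Fbl to Nop56 was 0.732, 0.708 and 0.917 untreated and 0.856, 0.837 and 1.04 with CDs. It was thus higher in the CDs library of each number, as was that of Nop58 to Nop56, at 0.428, 0.443 and 0.497 against 0.487, 0.471 and 0.553.

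The box H/ACA particle holds dyskerin (Dkc1), the pseudouridine synthase, with Nhp2, Nop10 and Gar1. All 4 genes were lower with CDs in each number. Nhp2 measured 129, 107 and 52.0 CPM untreated and 105, 89.5 and 33.0 CPM with CDs, giving a log2 fold change of -0.34 ± 0.53, and of -0.42 ± 0.14 in DESeq2 with the block (adjusted p = 0.0245). Nop10 measured 81.8, 68.1 and 25.2 CPM untreated and 69.3, 56.4 and 21.4 CPM with CDs (-0.25 ± 0.60). The gap between numbers was far wider than that between treatments in this gene, whose libraries numbered 3 held less than any other library. Gar1 had -0.27 ± 0.43 and Dkc1 -0.19 ± 0.48. The FPKM ratio of Gar1 to Dkc1 ran from 0.571 to 0.612 in untreated and from 0.495 to 0.662 in CDs libraries, a range that covers the untreated values. That of Nhp2 to Dkc1 was 2.91, 2.71 and 2.71 untreated and 2.51, 2.70 and 2.30 with CDs. It was lower with CDs in each number, by little in number 2. The ratio of Nop10 to Dkc1, at 2.55, 2.38 and 1.81 against 2.29, 2.34 and 2.06, had no common direction.

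The 17 genes of small subunit processing had a median log2 fold change of -0.13, with 15 below 0. Emg1, a methyltransferase of the small subunit RNA, measured 111, 104 and 74.4 CPM untreated and 94.0, 92.0 and 58.0 CPM with CDs, lower in each number (-0.25 ± 0.26). Noc4l, a small subunit maturation factor, measured 125, 118 and 58.4 CPM untreated and 119, 91.3 and 42.5 CPM with CDs (-0.25 ± 0.47). Imp4, a protein of the U3 snoRNA complex, and Ddx10, an RNA helicase, had values near 0, at -0.04 ± 0.14 and -0.01 ± 0.18. Imp3, the partner of Imp4 in the same complex, had -0.26 ± 0.38. The FPKM ratio of Imp4 to Imp3 was 0.359, 0.417 and 0.612 untreated and 0.443, 0.449 and 0.744 with CDs, higher with CDs in each number.

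Heatr1 and Utp20 were the 2 members with fitted values above 0. Both encode large scaffold proteins of the small subunit precursor, and Heatr1 (human UTP10) is also needed for rDNA transcription. Heatr1 measured 63.7, 59.9 and 73.1 CPM untreated and 74.6, 64.7 and 82.7 CPM with CDs. Each CDs library was above its partner, and the library with the highest level was CDs 3, in which 48 of the 50 members had their lowest (36.6% of all genes). The log2 fold change was 0.18 ± 0.14, and 0.17 ± 0.06 with the block (edgeR adjusted p = 0.131, over all settings 0.130 to 1). An exon of Heatr1 overlaps by 155 bases one of Lgals8, the galectin 8 gene on the opposite strand, and the library protocol names no step that keeps strand. Lgals8 measured 49.4, 51.1 and 118 CPM untreated and 50.6, 60.9 and 142 CPM with CDs, and its part in the Heatr1 values was not tested. Such overlaps are not particular to Heatr1, as 19 members have one. Longer overlaps were found in Tsr1 (616 bases), Noc2l (598), Bysl (361) and Emg1 (334), among others. Ccnd3, opposite Bysl, measured 1999, 1839 and 1151 CPM untreated and 1804, 1587 and 772 CPM with CDs. Bysl itself measured 128, 109 and 65.5 CPM untreated and 128, 98.2 and 49.7 CPM with CDs. Srr, Samd11 and Lpcat3, opposite Tsr1, Noc2l and Emg1, rose from number 1 to number 3 in both groups and were lower with CDs in each number. The part of these overlaps in the values was not tested either. Utp20 measured 35.1, 32.9 and 17.1 CPM untreated and 42.3, 30.5 and 20.2 CPM with CDs, higher in numbers 1 and 3 and lower in number 2 (0.13 ± 0.39).

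All 14 genes of large subunit processing had fitted values below 0, with a median of -0.14. Mrto4, a ribosome stalk assembly factor, measured 85.2, 75.1 and 38.0 CPM untreated and 73.7, 58.4 and 23.5 CPM with CDs. It was lower with CDs in each number, with a log2 fold change of -0.35 ± 0.51 without the block and of -0.44 ± 0.15 in DESeq2 with it (adjusted p = 0.0373). Noc2l, a large subunit maturation factor, had the highest FPKM of this step and measured 293, 280 and 177 CPM untreated and 281, 241 and 129 CPM with CDs (-0.20 ± 0.35). Pes1, Bop1 and Wdr12 form the PeBoW complex, which matures the large subunit RNAs. Pes1 had -0.14 ± 0.24, Bop1 -0.03 ± 0.36 and Wdr12 -0.23 ± 0.49. The FPKM ratio of Wdr12 to Pes1 was 0.472, 0.461 and 0.331 untreated and 0.484, 0.445 and 0.259 with CDs, so that it was low in both libraries numbered 3 and showed no common direction with CDs.

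Of the other nucleolar proteins, Npm1 measured 930, 758 and 335 CPM untreated and 755, 639 and 278 CPM with CDs. The log2 differences within numbers were -0.30, -0.25 and -0.27, and DESeq2 with the block gave -0.29 ± 0.09 (adjusted p = 0.0111), against -0.28 ± 0.52 in edgeR without it. Ncl measured 1132, 928 and 484 CPM untreated and 1098, 816 and 382 CPM with CDs (-0.15 ± 0.49). Lyar, a nucleolar growth regulator, measured 92.1, 80.9 and 33.9 CPM untreated and 79.8, 68.0 and 25.6 CPM with CDs (-0.26 ± 0.55). Nolc1, a chaperone of snoRNA particles, had a difference of 0.02 in number 1 and of -0.64 in number 3, and Ddx21, a nucleolar helicase, had -0.11 ± 0.41.

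**Figure D2:**
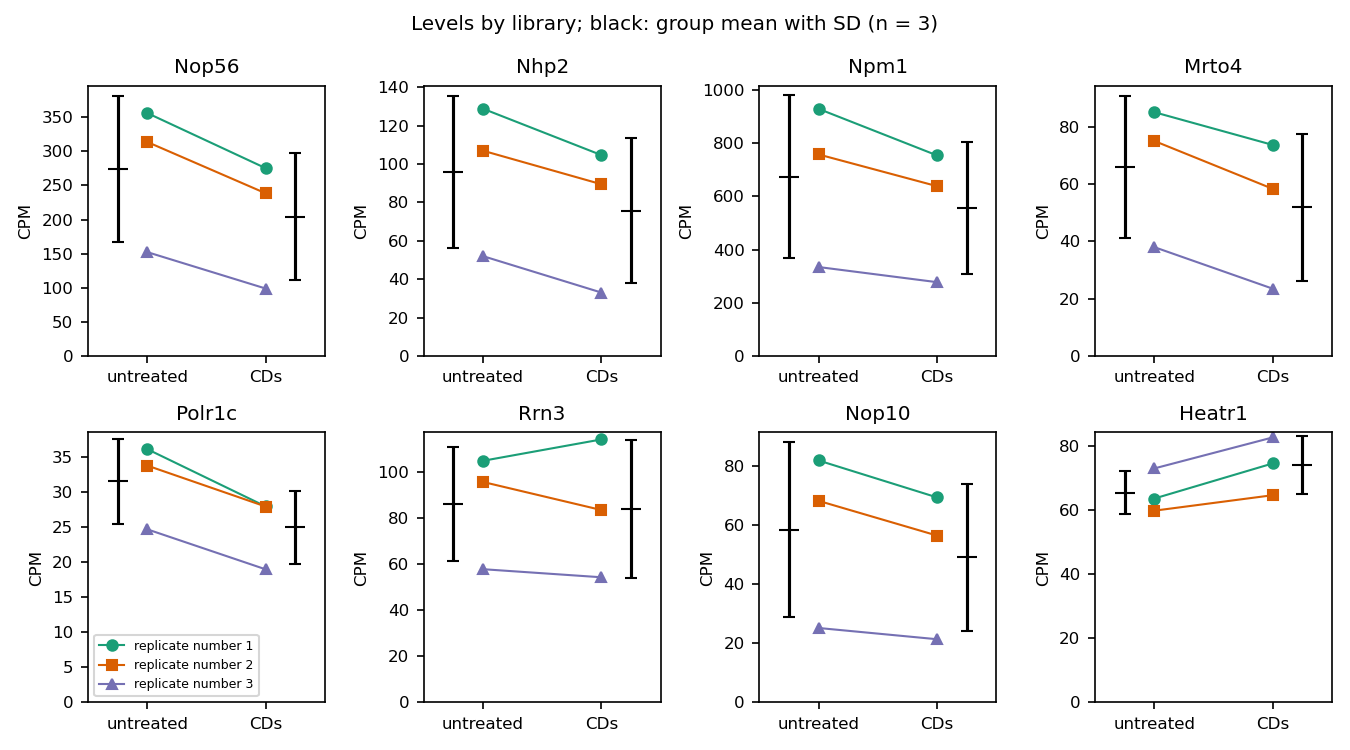
CPM (y axis, from 0) of 8 genes in untreated and CDs libraries (x axis), with 1 symbol and line per replicate number and the group mean with its SD (n = 3) in black. In Nop56, Nhp2, Npm1, Mrto4, Polr1c and Nop10 all 3 lines slope down and the libraries numbered 3 are lowest, in Rrn3 the line of number 1 slopes up, and in Heatr1 all 3 slope up.

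The larger difference among these genes was between replicate numbers. Both libraries numbered 3 were below the other 4 in 49 of the 50 members, which held for 36.8% of all genes, with Heatr1 as the exception, and above the other 4 in 0 members, which held for 37% of all genes. The median log2 difference between untreated 3 and untreated 1 was -0.93, and between CDs 3 and CDs 1 it was -1.18, against -0.003 and -0.01 over all genes. An F-test of the number in edgeR, with treatment in the model, called 48 of 50 members (adjusted p from 9.90e-04 for Nop10 to 0.0269 for Heatr1), beside 59.7% of all genes. Imp4 (adjusted p = 0.0505) and Ddx10 (adjusted p = 0.0677) did not pass. DESeq2 called 47 members, beside 50.3% of all genes. The number was tested only because libraries of the same number deviated together in these same values, so these calls were partly fixed beforehand. The labels do not say what the numbers stand for.

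The steps differed in how far they were below in number 3. The median log2 difference of untreated 3 from untreated 1 was -1.25 for the box H/ACA particle, -1.23 for other nucleolar proteins, -1.01 for the box C/D particle, -0.86 for small subunit processing, -0.82 for rDNA transcription and -0.80 for large subunit processing. In CDs 3 against CDs 1 the values were -1.57, -1.52, -1.29, -1.07, -1.07 and -1.13. The whole set took 0.629%, 0.550% and 0.328% of the counts untreated and 0.594%, 0.480% and 0.268% with CDs. By summed CPM, untreated 3 stood at 0.497 times untreated 1 for these genes, at 0.632 for the 78 ribosomal protein genes and at 0.829 for the 8 erythroid markers. CDs libraries stood at 0.930, 0.862 and 0.799 of their partners in numbers 1 to 3 for these genes, at 0.823, 0.843 and 0.744 for ribosomal protein genes and at 0.989, 0.996 and 0.923 for erythroid markers. Hbb-bt and Slc4a1 hold most of the erythroid sum, and its members differed among themselves. Gata1, the gene of an erythroid transcription factor, measured 513, 504 and 345 CPM untreated and 522, 438 and 260 CPM with CDs. Klf1, another erythroid factor gene, measured 714, 677 and 396 CPM untreated and 685, 587 and 297 CPM with CDs. Both were thus low in the libraries numbered 3 and lower with CDs in numbers 2 and 3, as most members were, and Epor and Tfrc were low in both libraries numbered 3 as well. Alas2, at 1650, 1670 and 1750 CPM untreated and 1740, 1860 and 1710 CPM with CDs, was not. The macrophage marker sum stood at 2.27, 3.17 and 1.23 of its partner in the same numbers, and in untreated 3 at 23.1 of untreated 1. In RNA from a mixed sample, fewer cells of a type and less RNA per cell cannot be told apart, and the part of the macrophage and granulocyte markers in these differences was not tested.

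**Figure D3:**
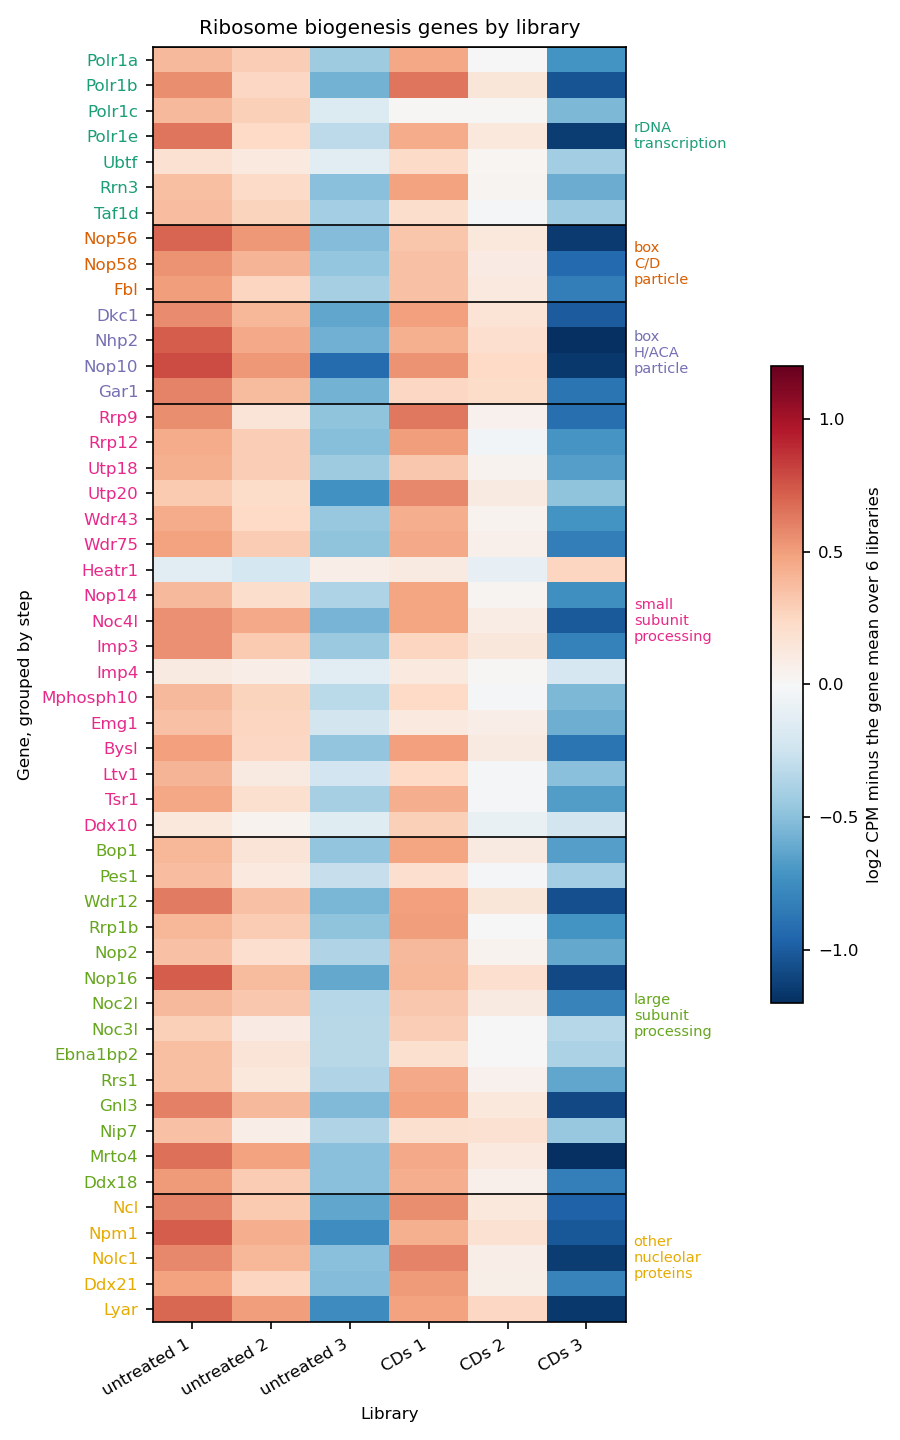
Log2 CPM minus the gene's mean over 6 libraries (colour) for each of the 50 genes (y axis, grouped and coloured by step) in each library (x axis). Untreated 3 and CDs 3 are blue for every gene but Heatr1, and CDs 3 is the lowest library for 48 genes.

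**Figure D4:**
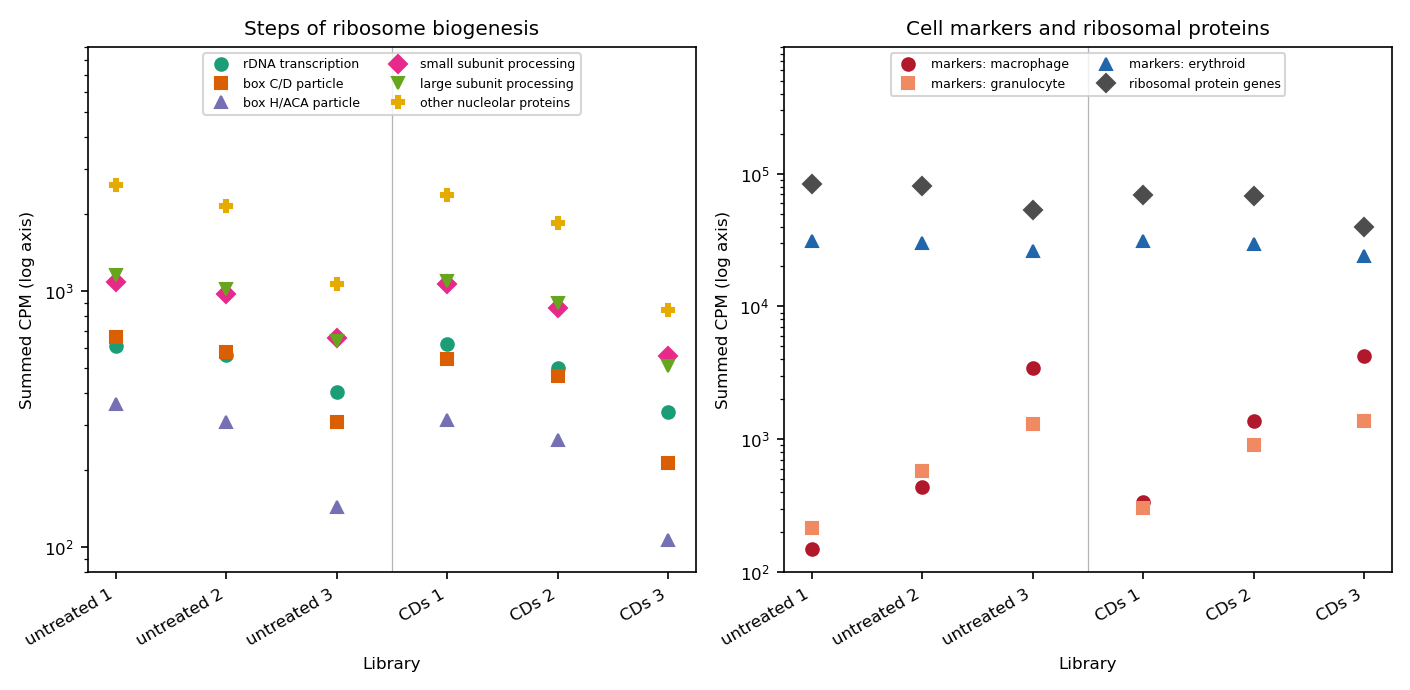
Summed CPM on a log axis (y) in each library (x) for the 6 steps (left) and for marker lists and ribosomal protein genes (right). All 6 steps are lowest in CDs 3, where macrophage markers are highest.

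The log2 difference between CDs and untreated cells tended to rise with transcript length, an observation made after the values were seen. A transcript length was taken from the ratio of counts to FPKM. Among the 50 genes the mean log2 difference over the 3 numbers was nearer to 0 or above it in longer transcripts, with a Spearman rho of 0.60 across genes, which are not independent replicates and share the same 6 libraries. Across the 10843 genes with a length it was 0.25. Medians of the 3 members under 1 kb, the 13 of 1 to 2 kb, the 24 of 2 to 4 kb and the 10 over 4 kb were -0.27, -0.27, -0.18 and -0.15. The medians of all genes in these classes were -0.16, -0.06, 0.00 and 0.06. Nop10, at 719 bases, is the shortest member, and Heatr1 and Utp20, the 2 above 0, are the longest, at 6907 and 9004 bases. The relation of length to the difference between untreated 3 and untreated 1 was weaker, with a rho of 0.30. RNA integrity values are not given in the sources used here.

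**Figure D5:**
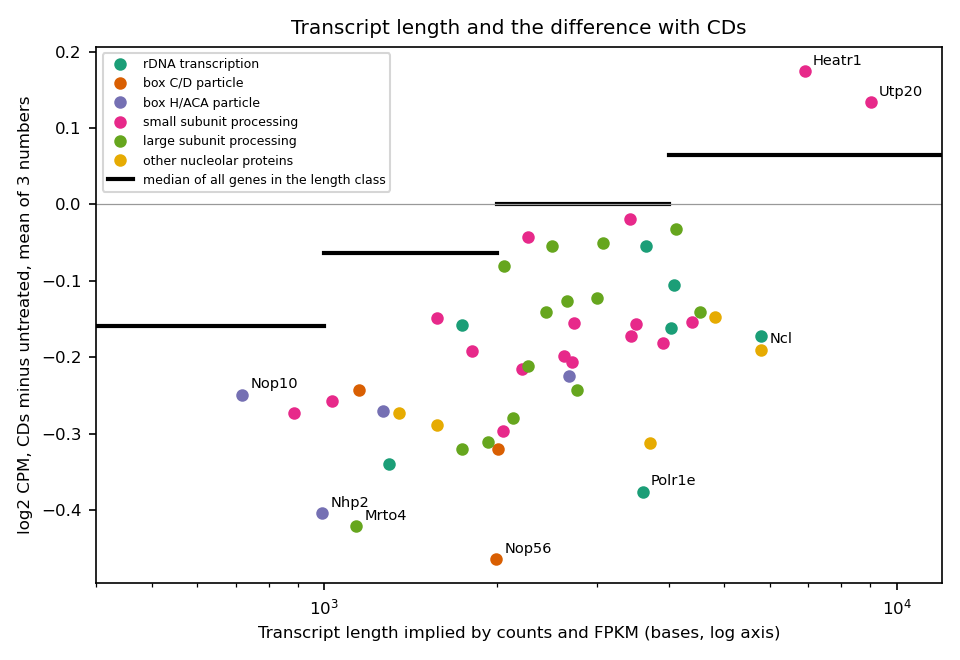
Mean log2 CPM difference between CDs and untreated over the 3 numbers (y axis) against transcript length on a log axis (x) for the 50 genes, coloured by step, with black bars at the median of all genes in each length class. Heatr1 and Utp20 lie above 0 at the right, and Nop56 is lowest at 1998 bases.

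Some members are host genes of snoRNAs, which guide the particles described above. By RefSeq positions in GRCm38.p6, 8 of the 50 spans (16%) held at least 1 snoRNA gene, against 2.37% of the tested genes looked up. Nop56 (chromosome 2, 130274367 to 130279313) held 5, among them Snord57 and Snord110. Nop58 (chromosome 1, 59684961 to 59711510) held 4, among them Snord11 and Snord70, Gnl3 held Snord19 and Snord69 among 3, and Ncl (chromosome 1, 86344719 to 86359455) held Snora75 and Snord82. The host genes had a median log2 fold change with CDs of -0.18 and the other members -0.16. The RNA here was selected by poly(A) tails, so these values describe the host transcripts and not the snoRNAs.

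Promoter sequence is shown for 3 members that behaved differently, Rrn3 (no common direction with CDs), Heatr1 (higher with CDs in each number) and Nop10 (the largest difference between untreated 3 and untreated 1). Each line gives the 250 bases before the RefSeq start site in GRCm38.p6, on the plus strand, at chr16:13780449-13780698 for Rrn3, chr13:12395125-12395374 for Heatr1 and chr2:112261676-112261925 for Nop10. Capitals mark CACGTG, the E-box that MYC and its relatives can bind, and CCGGAAG, a core that ETS factors can bind, searched on both strands.
Rrn3: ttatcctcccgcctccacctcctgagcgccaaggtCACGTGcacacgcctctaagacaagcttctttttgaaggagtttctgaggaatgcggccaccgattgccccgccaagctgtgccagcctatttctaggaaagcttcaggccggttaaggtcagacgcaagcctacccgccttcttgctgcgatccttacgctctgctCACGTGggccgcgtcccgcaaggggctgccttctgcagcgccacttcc
Heatr1: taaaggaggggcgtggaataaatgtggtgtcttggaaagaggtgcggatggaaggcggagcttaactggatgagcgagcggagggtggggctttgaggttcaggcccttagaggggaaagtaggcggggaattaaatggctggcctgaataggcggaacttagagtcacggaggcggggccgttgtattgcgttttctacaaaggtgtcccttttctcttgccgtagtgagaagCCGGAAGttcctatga
Nop10: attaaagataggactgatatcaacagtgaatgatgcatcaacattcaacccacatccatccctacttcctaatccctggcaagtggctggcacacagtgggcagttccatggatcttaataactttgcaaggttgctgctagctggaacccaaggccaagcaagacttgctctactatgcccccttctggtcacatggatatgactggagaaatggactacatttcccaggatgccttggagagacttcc

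The Rrn3 window holds CACGTG at positions -215 and -48 from the start site, the Heatr1 window CCGGAAG at -16, and the Nop10 window neither. Rrn3 also holds the reverse complement CTTCCGG at -5, running past the bases shown, and at 18. RefSeq promoters were matched for 45 of the 50 members, all but Fbl, Rrp12, Bop1, Rrs1 and Npm1. In windows of 300 bases, which add 50 bases after the start, CACGTG was found for 9 of 45 members (20%), against 11.8% of tested genes and 8.1% of all genes with a promoter. The 9 were Imp4, Ltv1, Nop2, Pes1, Rrn3, Tsr1, Utp18, Utp20 and Wdr43. Their median log2 fold change with CDs was -0.13, and that of the other 36 was -0.20. CCGGAAG was found for 18 of 45 members (40%), against 20.4% of tested genes and 9.9% of all genes. A match describes the letters and is no evidence of binding.

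Of 108 further genes for the polymerase, both subunits, snoRNA particle assembly and the RNA exosome, 98 had fitted values below 0, with a median of -0.12, and 0 passed in edgeR with or without the block. At an unadjusted p under 0.05 there were 0 without it, and with it 31 lower and 1 higher, beside 11.9% and 18% of all genes. DESeq2 with the block called 2 of the 108 lower, a share near the 2.09% of all genes, namely Bms1 (-0.30 ± 0.48 in edgeR), a GTPase of the small subunit precursor, and Ppan (-0.42 ± 0.42), a large subunit factor. Groups did not overlap in 1 of the 108, lower with CDs, while 2.33% of all genes were lower without overlap. This was Taf1c, a subunit of SL1, at 32.7, 33.0 and 27.0 CPM untreated and 26.4, 26.4 and 22.8 CPM with CDs (-0.29 ± 0.14). Bms1 and Ppan were named after their values were seen. The assembly factors Ruvbl1 and Ruvbl2, helicases that help build box C/D particles, had -0.29 ± 0.37 and -0.28 ± 0.41, Snu13, a box C/D protein, -0.20 ± 0.34, and the exosome subunit gene Exosc8 -0.29 ± 0.31. Xrn2, the nuclear 5′ exonuclease gene, was higher with CDs in each number (0.18 ± 0.16). Both libraries numbered 3 were the lowest in 92 of the 108, beside 36.8% of all genes.

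Among 12 regulators the median was 0.03 and 4 were below 0. Myc, whose product drives transcription of many of these genes, measured 105, 96.8 and 62.4 CPM untreated and 105, 89.5 and 43.2 CPM with CDs, giving a log2 fold change of -0.15 ± 0.39. It was low in both libraries numbered 3, as the members were, and nearly equal in both libraries numbered 1. Mxd4, which encodes a MYC antagonist, measured 1.14, 1.79 and 5.81 CPM untreated and 1.72, 4.83 and 11.2 CPM with CDs (1.02 ± 0.90), and was the 1 of 12 regulators called higher in DESeq2 with the block (adjusted p = 0.0402), beside 7.76% of all genes. Its levels were highest in the libraries numbered 3 and in CDs 3 above all, as the macrophage marker sum was, and the part of those markers in it was not tested. Mnt, another antagonist, was higher with CDs in each number (0.28 ± 0.31). Max, the partner of MYC, had -0.03 ± 0.15, and Rb1, the retinoblastoma gene, 0.06 ± 0.18. Myc, Mxd4 and Mnt were named after their values were seen.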

How the data were processed

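Polyadenylated RNA of 6 libraries was selected with oligo(dT) beads and read over 50 bases from one end, per the labels' protocols. Per the submitters' processing notes, RSEM 1.2.12, HISAT2 2.0.4, DESeq2 1.4.5 and Bowtie2 2.2.5 were used with GRCm38.p6, with no role stated for any. The authors deposited expected counts per gene, of which 30.1% were not whole and all were rounded here. They also deposited FPKM, a unit inferred from the values, used here for levels between genes and as an alternative with a pseudocount of 0.1. Counts and FPKM of the 50 members differed by at most 0.0574 (RMS log2 deviation).

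filterByExpr kept 12283 genes, all 50 members among them. After TMM scaling, the robust quasi-likelihood test of edgeR 4.0.16 (R 4.3.3) was fitted on treatment alone, with Benjamini-Hochberg adjustment over all genes. Log2 differences within a number used a prior count of 2. Limma 3.58.1, DESeq2 1.42.0, other scaling and filters, and libraries left out were alternatives. Deviations from the group means correlated at 0.91, 0.34 and 0.94 within numbers 1, 2 and 3, each above 0.1, and the numbers, which come from the sample titles, were taken to pair the libraries. Untreated 2 correlated more with CDs 1 (0.68) than with CDs 2.

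Named members are, per step, the 2 with the highest FPKM and the 2 with the smallest p without the block, and any past an adjusted p of 0.05 in edgeR with or without the block (0 were). The same rule picked other pathway genes, of which only some are given here. Others, such as Utp20, Imp3, Imp4, Ddx10, Bop1, Wdr12, Polr1a, Polr1e, Dkc1, Gnl3, Nolc1 and Ddx21, were named after their values were seen. The members, lists and tests were chosen with earlier results of these data known. Exons of 19 members overlap a gene on the opposite strand in GENCODE M21, and reads of both cannot be told apart. The erythroid marker sum leaves out 1 marker of the list, which is not reported here.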

Additional observations from a re-analysis of the deposited data

How the results depend on the processing

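The median log2 fold change of the members was below 0 in every setting tried except without untreated 1 and without CDs 3, and ran from -0.447 to 0.094 with 1 library left out. Of 19 named members, 13 changed sign when 1 library was left out and 0 in any other setting. Their lowest and highest log2 fold changes were those of Ubtf (-0.245 to 0.072), Rrn3 (-0.329 to 0.198), Fbl (-0.458 to 0.068), Nop58 (-0.559 to 0.007), Nhp2 (-0.654 to 0.016), Nop10 (-0.615 to 0.106), Gar1 (-0.542 to 0.017), Noc4l (-0.591 to 0.069), Noc2l (-0.439 to 0.063), Pes1 (-0.3 to 0.017), Npm1 (-0.601 to 0.047), Ncl (-0.508 to 0.175) and Lyar (-0.585 to 0.098). Against 0 of all genes called in edgeR without the block, the replicate block called 5, limma-voom with the replicate block 6, DESeq2 without it 14 and DESeq2 with it 1210, of which 5 were members. In settings chosen after seeing the data, edgeR with the replicate block called 1835 genes and 7 members without both libraries numbered 3, and 899 genes and 7 members without both numbered 2. The cause was not tested. With all 6 libraries the replicate block changed no call of a member in edgeR. Without both libraries numbered 3, the fit with the block called 7 members and the fit without it 0. Depth was no limit for detection, as each member held at least 124 counts in every library.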
